A study of Caenorhabditis elegans with 15 samples.

Results

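The comparison set Caenorhabditis elegans that overexpress ACP7-7A, a phosphatase-inactive form of the secreted protein ACP7, against wild-type worms, with 5 libraries in each group. It used 10 of the 15 libraries of the series, and its features were the 14980 genes, of 46929 in the deposited count table, that passed a filter on low counts in these 10 libraries. Wild type was the laboratory strain N2. ACP7-7A OE was the strain ABR484, which carries the altered coding sequence of F21A3.11, the gene of ACP7, driven in the gut by the ges-1 promoter (ges-1 encodes a gut esterase) and followed by a trans-spliced red fluorescent reporter (SL2 WormScarlet) and the 3 prime untranslated region of the muscle myosin gene unc-54. The remaining group of the series, ACP7 OE (strain ABR275, 5 libraries), carries the same arrangement with the unaltered coding sequence and is used below for single genes only. Each library was poly(A) RNA from about 1000 whole worms. Neither the age of the worms nor their culture is given in the sources used here. The labels name a single strain for the construct, so the effect of ACP7-7A and any other difference between that strain and N2 cannot be told apart. Nothing in the labels says that the 5 libraries of a group came from separate cultures, so the p-values measure the spread between these libraries, which may be technical.

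Acid phosphatases remove phosphate groups from their substrates at low pH, in lysosomes or outside the cell. The intestine of the worm digests and stores food, secretes proteins into the body cavity and the gut lumen, makes the yolk taken up by oocytes, and is rich in lysosome-related organelles. An inactive enzyme made from the same promoter is a usual control for effects of the phosphatase activity itself, since the cells still make and may secrete the protein.

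The 10 libraries held between 39050495 and 50869260 counts. Ribosomal RNA took 2.13% to 3.08% of the counts in wild type and 1.21% to 2.08% in ACP7-7A OE. On the first principal component, with 41.3% of the variance of the 2000 most variable genes, ACP7-7A OE libraries 1 and 2 stood apart from the rest, and wild-type library 5 lay between them and the other wild-type libraries. The second, with 34.2%, separated ACP7-7A OE libraries 3, 4 and 5 from the other libraries. The 11 intestinal markers were all present. Their summed level was 1415 to 1905 CPM in the wild-type libraries and 1255 to 1611 CPM in ACP7-7A OE, where CPM are counts per 1e6 counts after TMM scaling. The 11 oocyte markers summed to 9509 to 11940 CPM and 11370 to 14230 CPM, and 4 of them passed as higher. The 8 tested markers of cuticle-forming hypodermis summed to 1130 to 1709 CPM and 831 to 1484 CPM, and 2 passed as lower. Sperm markers summed to 50.7 to 55.5 CPM in the wild-type libraries and 45.6 to 77.2 CPM in ACP7-7A OE, and those of body wall muscle to 3428 to 4938 CPM and 3194 to 5596 CPM. In whole worms, fewer cells of a type and less RNA per cell cannot be told apart.

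**Figure D1:**
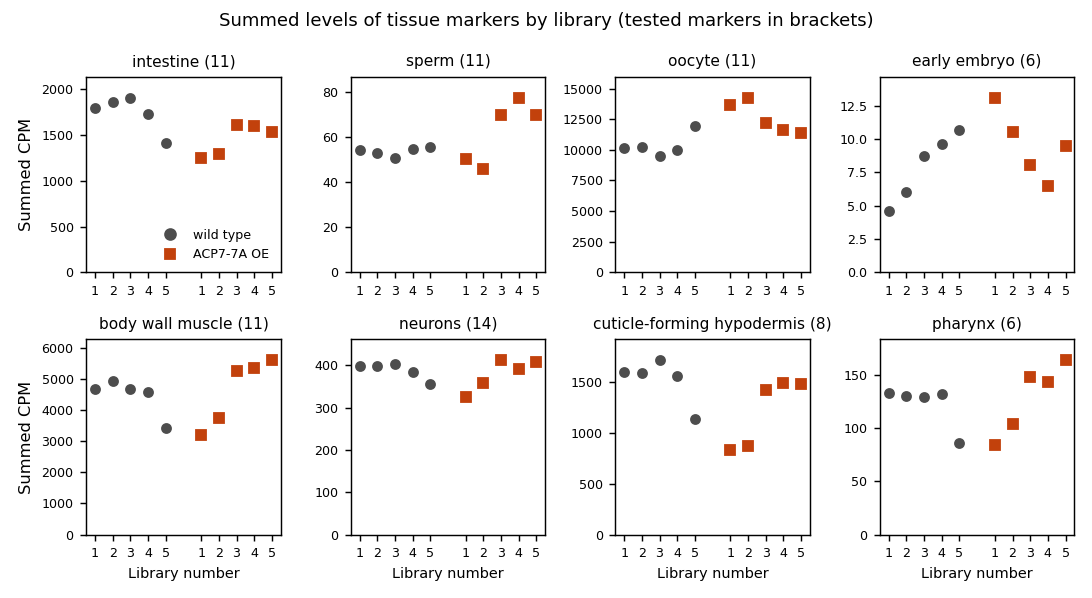
Summed CPM of markers of 8 tissues or stages in each library, by library number, with wild type as grey circles and ACP7-7A OE as orange squares. In muscle, hypodermis and pharynx, wild-type library 5 and ACP7-7A OE libraries 1 and 2 lie below the other libraries, while the oocyte sum is highest in ACP7-7A OE libraries 1 and 2.

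At an adjusted p under 0.05 in edgeR's quasi-likelihood test with Benjamini-Hochberg adjustment, 768 of the 14980 genes (5.13%) differed between ACP7-7A OE and wild type. Of these, 254 (1.7% of tested genes) were higher in ACP7-7A OE and 514 (3.43%) were lower. The higher genes changed little in size. Their median log2 fold change was 0.29, and 215 of them changed by under 1.5-fold, against 248 of the lower genes, whose median was −0.60. At least 1 log2 unit separated the groups for 18 higher and 86 lower genes. The higher genes were also the more abundant, with a median level of 78.1 CPM, against 15.3 CPM for the lower genes and 9.56 CPM for all tested genes. The CPM ranges of the groups did not overlap for 829 genes (5.53%), of which 315 (2.1%) were higher and 514 (3.43%) lower in ACP7-7A OE. Among them were 166 of the higher and 306 of the lower calls. With RLE size factors in place of TMM, 342 genes were higher and 425 lower, so that 44.6% of the calls were higher.

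The number of calls depended on single libraries. It was 258, 246, 239 and 212 without wild-type libraries 1, 2, 3 and 4, and 1942 without wild-type library 5. It was 602, 375, 394, 612 and 704 without ACP7-7A OE libraries 1 to 5. All 10 of these fits called 185 of the 768 genes, 60 higher and 125 lower, and these also passed without ACP7-7A OE libraries 1 and 2, and without those and wild-type library 5. Below, a gene is said to have passed in every such fit where it is among the 185. For the genes that are not, the libraries whose removal ends the call are named. Without wild-type library 5, 758 of 15240 tested genes rose and 1184 fell. Leaving out wild-type library 1 gave 70 and 188 of 15186. Without ACP7-7A OE libraries 1 and 2, 377 of 15560 rose and 534 fell, and without those and wild-type library 5, 974 and 1423 of 15418. Counts of gene groups in such fits are to be read beside these totals.

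**Figure D2:**
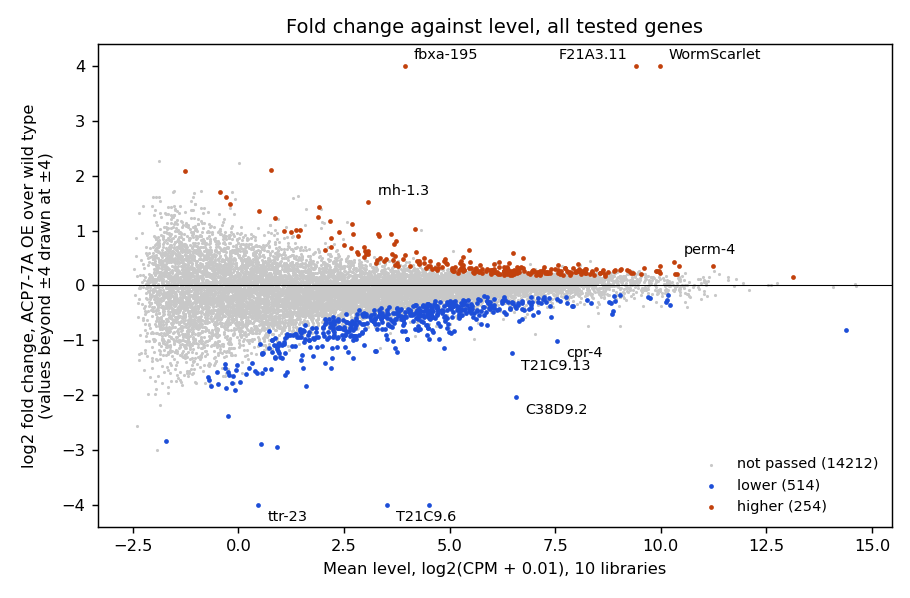
Log2 fold change of ACP7-7A OE over wild type against the mean level, for all 14980 tested genes. Orange points are the 254 higher and blue points the 514 lower genes, and grey points did not pass the test. Values beyond 4 log2 units in either direction are drawn at that limit.

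Transcripts of the construct were present in every ACP7-7A OE library. F21A3.11 (chromosome V, 15530783 to 15533212, WBcel235) measured 16.2, 14.1, 15.5, 13.02 and 16.6 CPM in wild-type libraries 1 to 5. In ACP7-7A OE it measured 1047, 1126, 1555, 1542 and 1503 CPM, a log2 fold change of 6.49 (with an SE of 0.15, edgeR adjusted p = 6.98e-10). Reads of the chromosomal gene and of the construct cannot be told apart in these counts, and the counts do not show the inactivating changes. WormScarlet, the reporter, had no counts in N2 worms and 1544, 1637, 2368, 2358 and 2175 CPM in ACP7-7A OE. Within ACP7-7A OE, libraries 1 and 2 were the lowest for both transcripts and also for the summed intestinal markers, at 1255 and 1290 CPM against 1531 to 1611 CPM in libraries 3 to 5. Per kilobase of exon, the level of F21A3.11 was 862 ± 157 CPM and that of WormScarlet 2885 ± 569 CPM (SD, n = 5).

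The construct takes its ends from ges-1 and unc-54. ges-1 (chromosome V, 1427653 to 1432137) measured 47.3, 46.0, 43.9, 43.0 and 39.3 CPM in the wild-type libraries and 32.6, 33.6, 35.6, 35.3 and 34.3 CPM in ACP7-7A OE. The groups did not overlap, and the gene was lower by a log2 fold change of −0.36 (with an SE of 0.07, edgeR adjusted p = 0.0077). It passed in every fit with a library left out. In ACP7 OE ges-1 measured 44.2 ± 5.30 CPM (SD, n = 5, edgeR adjusted p = 0.00424 for ACP7-7A OE against ACP7 OE). The pseudogene fbxa-195 lies 2202 bases from ges-1, at 1434339 to 1435804 on the same chromosome. It had no counts in N2 worms and 27.4, 26.7, 33.3, 31.3 and 33.9 CPM in the ACP7-7A OE libraries. It was at least 2180-fold higher, taking 3 counts over the whole group as the limit for wild type. In ACP7 OE, which carries the same promoter, fbxa-195 measured 22.8 ± 2.46 CPM (SD, n = 5). For unc-54 the values were 1310, 1239, 1146, 1241 and 968 CPM in the wild-type libraries and 1188, 1380, 2358, 2284 and 2452 CPM in ACP7-7A OE. The groups overlapped, and the difference did not pass (log2 fold change 0.71 with an SE of 0.22, edgeR adjusted p = 0.104) unless ACP7-7A OE library 1 was left out (log2 fold change 0.84, adjusted p = 0.033). It also passed in DESeq2 (adjusted p = 0.00754), without ACP7-7A OE libraries 1 and 2 (log2 fold change 1.00, adjusted p = 1.1e-06) and without those and wild-type library 5 (0.94, adjusted p = 1.61e-15). In ACP7 OE unc-54 measured 1056 ± 223 CPM (SD, n = 5, edgeR adjusted p = 0.018 for ACP7-7A OE against ACP7 OE). Reads from the unc-54 part of the construct may be counted with the gene, and the counts cannot tell them apart. The gene lists leave out unc-54.

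A pair of neighbouring genes on chromosome V had no counts in any ACP7-7A OE library. T21C9.6 (10581887 to 10587077) measured 27.3, 23, 21.3, 24.41 and 19.2 CPM in wild type, from 4929 counts in all, which makes it at least 1778-fold lower in ACP7-7A OE. ttr-23, a transthyretin-like gene 2015 bases further on, measured 2.202, 3.005, 3.98, 2.43 and 2.17 CPM in wild type, from 600 counts, and was at least 216-fold lower. In ACP7 OE both were present, T21C9.6 at 24.38 ± 4.76 CPM and ttr-23 at 2.31 ± 0.43 CPM (SD, n = 5). These bounds cover counting error only, and they are too high where both mates of a read pair were counted.

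The genes around the pair were measured in both groups. T21C9.13, 10189 bases from T21C9.6, measured 113, 121, 121, 121 and 151 CPM in the wild-type libraries and 58.6, 60.6, 45.7, 52.1 and 48.4 CPM in ACP7-7A OE. It was lower without overlap (log2 fold change −1.24 with an SE of 0.09, edgeR adjusted p = 1.25e-06), passed in every fit with a library left out, and stood at 131 ± 9.01 CPM in ACP7 OE. Between ttr-23 and T21C9.13, T21C9.9 had 153 counts in wild type and 106 in ACP7-7A OE and did not pass (adjusted p = 0.55 in edgeR). The next gene beyond T21C9.13, scpl-4, measured 132 ± 5.52 and 126 ± 5.71 CPM and did not pass either (adjusted p = 0.466 in edgeR). T21C9.9 and scpl-4 were chosen after their values were seen, as neighbours.

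**Figure D3:**
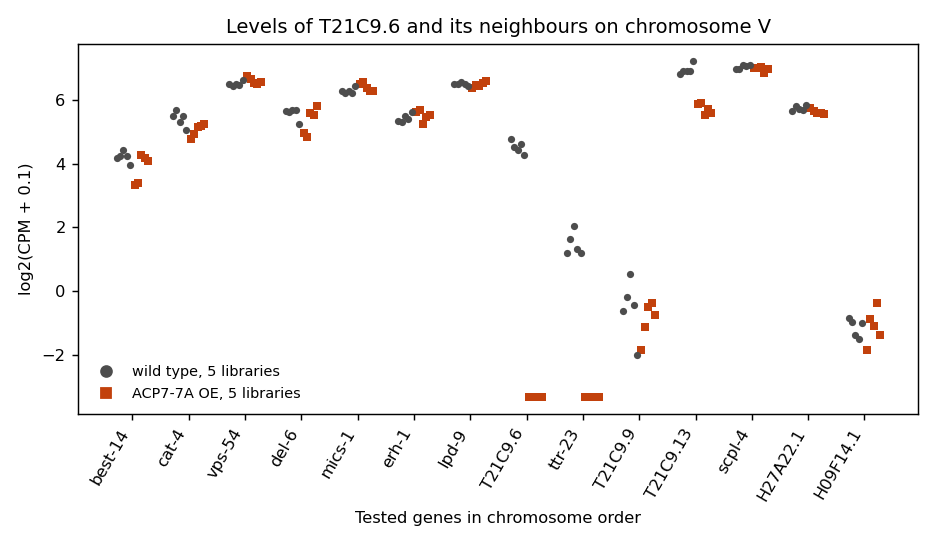
Levels, as log2(CPM + 0.1), of tested genes within 30000 bases of T21C9.6 in chromosome order, with the 5 wild-type libraries as grey circles and the 5 ACP7-7A OE libraries as orange squares. T21C9.6 and ttr-23 lie at the value for 0 in all ACP7-7A OE libraries, T21C9.13 lies lower in ACP7-7A OE without overlap, and the flanking genes are present in both groups.

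Elsewhere on chromosome V, C38D9.2 (17567150 to 17571739) measured 140, 144, 149, 145 and 190 CPM in the wild-type libraries and 38.8, 34.7, 36.5, 41.9 and 34.3 CPM in ACP7-7A OE. The log2 fold change was −2.04 (with an SE of 0.09, edgeR adjusted p = 2.64e-10). The non-coding RNA gene C38D9.13, which starts 1469 bases beyond it on the same strand, was lower as well, from 6.05 ± 0.98 to 2.27 ± 0.32 CPM (log2 fold change −1.41, adjusted p = 0.000374 in edgeR). The groups did not overlap for either gene, and both passed in every fit with a library left out. In ACP7 OE the same genes were lower still, at 9.88 ± 0.51 and 1.23 ± 0.49 CPM (SD, n = 5, edgeR adjusted p = 7.47e-14 and 0.0157 for ACP7-7A OE against ACP7 OE).

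Among the genes that rose, few changed by more than 1 log2 unit. rnh-1.3, of the RNase H family, measured 4.08, 4.41, 4.18, 4.30 and 4.88 CPM in the wild-type libraries and 12.64, 12.5, 11.7, 11.7 and 13.9 CPM in ACP7-7A OE (log2 fold change 1.51 with an SE of 0.12, edgeR adjusted p = 1.35e-06). H11L12.1 on chromosome X rose from 11.96 ± 0.94 to 24.44 ± 2.32 CPM, a log2 fold change of 1.03 (adjusted p = 8.83e-06 in edgeR). sax-2, which encodes a Furry-like protein needed for the shape of sensory neurons, measured 70.2, 72.0, 67.9, 78.6 and 76.1 CPM and then 114, 112, 109, 108 and 102 CPM (log2 fold change 0.58 with an SE of 0.06, edgeR adjusted p = 1.47e-05). The groups did not overlap for any of these genes, and they passed in every fit with a library left out.

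Lower down in level, the pseudogene Y57G7A.8 rose from 2.03 ± 0.30 to 5.44 ± 0.83 CPM and B0024.4 from 2.19 ± 0.28 to 5.21 ± 0.48 CPM. A further pseudogene, enu-3.4, rose from 2.77 ± 0.67 to 6.27 ± 1.64 CPM. The glutathione S-transferase gene gst-38 measured 4.36, 4.94, 3.29, 4.498 and 3.105 CPM in the wild-type libraries and 5.99, 7.396, 9.98, 9.54 and 10.9 CPM in ACP7-7A OE, with ACP7-7A OE libraries 1 and 2 the lowest of their group. Y59C2A.3 rose from 33.9 ± 1.39 to 53.4 ± 4.74 CPM. Their log2 fold changes were 1.42, 1.25, 1.175, 1.118 and 0.65 in that order, and each passed in every fit with a library left out. Over all tested pseudogenes, 18 of 523 (3.44%) rose and 8 (1.53%) fell, against 1.7% and 3.43% of all tested genes.

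Several genes of low level fell by more than 1 log2 unit. bath-25, a gene with MATH and BTB domains, fell from 4.73 ± 1.54 to 1.33 ± 0.63 CPM, Y37A1B.7 from 3.24 ± 1.09 to 1.04 ± 0.28 CPM, and arrd-24, an arrestin domain gene, from 3.31 ± 0.72 to 1.10 ± 0.39 CPM. The cyclophilin gene cyn-17 fell from 4.27 ± 1.17 to 1.496 ± 0.42 CPM, and C05C12.4 from 6.75 ± 1.88 to 2.39 ± 0.49 CPM. sdz-24, which depends on the transcription factor SKN-1 in early embryos, fell from 9.32 ± 2.00 to 3.73 ± 0.92 CPM. glo-3, a gene needed to form gut granules, fell from 4.01 ± 1.02 to 1.66 ± 0.44 CPM, but F59F5.3 overlaps it on the other strand and their reads cannot be told apart without strand. The log2 fold changes of these 7 genes lay between −1.84 for bath-25 and −1.27 for glo-3, and all 7 passed in every fit with a library left out.

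At higher levels, Y45F10C.4 fell from 42.6 ± 5.16 to 23.3 ± 2.89 CPM and txt-4 from 28.6 ± 3.85 to 15.3 ± 1.40 CPM, although clec-172 overlaps txt-4 on the other strand. The acid sphingomyelinase gene asm-3 measured 5.39, 4.31, 4.65, 5.36 and 13.3 CPM in the wild-type libraries and 2.399, 3.74, 2.03, 2.29 and 2.72 CPM in ACP7-7A OE. Wild-type library 5 was far above the rest, and the call (log2 fold change −1.32, adjusted p = 0.0245 in edgeR) was lost without wild-type library 4 or ACP7-7A OE libraries 1, 3 or 4, with an adjusted p of up to 0.0662. The pseudogene math-35 fell from 2.92 ± 0.76 to 1.17 ± 0.35 CPM, and its call was lost without wild-type library 2 (adjusted p = 0.0518).

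Several digestive and lysosomal enzymes of the intestine fell, though most members of each such group did not pass the test. Of 11 tested cysteine cathepsins, which degrade proteins in lysosomes and the gut lumen, 4 fell and none rose (36.4%, against 3.43% of all tested genes), and all 11 fold changes lay below 0, with a median of −0.26 against −0.02 for all genes. cpr-4 encodes a cathepsin B-like protease that can be secreted. It measured 288, 285, 236, 236 and 202 CPM in the wild-type libraries and 124, 134, 112, 130 and 116 CPM in ACP7-7A OE (log2 fold change −1.02 with an SE of 0.09, edgeR adjusted p = 1.78e-05). The cathepsin Z gene cpz-1 fell from 484 ± 31.8 to 394 ± 24.38 CPM (log2 fold change −0.30), a call lost without ACP7-7A OE library 3 (adjusted p = 0.0537). nuc-1 encodes the lysosomal DNase II that degrades DNA of dead cells and of food. Its levels were 99.3, 101, 103, 90.9 and 83.2 CPM in the wild-type libraries and 64.4, 68.6, 68.4, 62.8 and 67.0 CPM in ACP7-7A OE (log2 fold change −0.53 with an SE of 0.06, edgeR adjusted p = 0.00018). For cpr-4 and nuc-1 every ACP7-7A OE library lay below every wild-type library, and both passed in every fit with a library left out.

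Smaller shares of related groups passed. Of 12 tested aspartyl proteases 2 fell (16.7%, against 3.43% of all tested genes). Among them, asp-13 fell from 361 ± 33.6 to 287 ± 14.2 CPM (log2 fold change −0.33, adjusted p = 0.00913 in edgeR) and passed in every fit with a library left out. Of 7 lysosomal acid lipases only lipl-5 fell (14.3%), from 526 ± 44.2 to 433 ± 20.6 CPM (log2 fold change −0.28). Its call was lost without wild-type libraries 2 or 3 or ACP7-7A OE libraries 3, 4 or 5, with an adjusted p of up to 0.0606. Of 35 genes for the proton pump and other parts of the lysosome, 2 fell (5.71%, against 3.43% of all tested genes), nuc-1 included, and none rose. With single libraries left out, 1 to 6 aspartyl proteases and 1 to 13 of these lysosomal genes fell, with both counts highest without wild-type library 5. In that fit 1184 of all 15240 tested genes fell. Of 16 acid phosphatases other than F21A3.11, 1 rose and 1 fell (6.25% each, against 1.7% and 3.43% of all tested genes). The 16 genes of intestinal identity all had fold changes below 0, with a median of −0.23. None passed in edgeR, 10 were lower at an unadjusted p under 0.05, and DESeq2 called 3 lower. Over all 14980 tested genes, 3322 had an unadjusted p under 0.05 in either direction, and DESeq2 called 801 lower. In edgeR 8 of the 16 fell without wild-type library 5, and 10 without that library and ACP7-7A OE libraries 1 and 2. Over all tested genes, 1184 of 15240 and 1423 of 15418 fell in these fits. The summed intestinal markers overlapped between the groups only through wild-type library 5, at 1415 CPM. They stood at 1733 to 1905 CPM in wild-type libraries 1 to 4 and at 1255 to 1611 CPM in ACP7-7A OE. Their part in the lower enzyme levels was not tested.

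Proteins of the saposin-like family can permeabilise bacterial membranes and are made largely in the gut. Of 20 tested members, 8 fell and none rose (40%, against 3.43% of all tested genes that fell), at a median log2 fold change of −0.36. spp-5 measured 571, 587, 580, 532 and 432 CPM in the wild-type libraries and 387, 436, 346, 379 and 405 CPM in ACP7-7A OE (log2 fold change −0.47 with an SE of 0.08, edgeR adjusted p = 0.0062). The groups overlapped through wild-type library 5. spp-4 fell from 25.5 ± 2.80 to 16.1 ± 3.49 CPM (log2 fold change −0.67). Of 9 lysozymes, which cleave bacterial cell walls, only ilys-5 fell, from 544 ± 65.2 to 381 ± 51.9 CPM (log2 fold change −0.51, adjusted p = 0.015 in edgeR). These 3 genes passed in every fit with a library left out.

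The typical member of both families and their summed level divided the libraries in different ways. The median log2(CPM + 1) of the 9 lysozymes was 6.07 to 6.22 in wild-type libraries 1 to 4 and 6.16 and 6.29 in ACP7-7A OE libraries 1 and 2. It was 5.20 in wild-type library 5 and 5.17 to 5.24 in ACP7-7A OE libraries 3 to 5. The summed level of the lysozymes was 1588 to 1826 CPM in wild-type libraries 1 to 4, 1368 CPM in wild-type library 5 and 1386 to 1555 CPM in all 5 ACP7-7A OE libraries. For the saposin-like genes the sums were 1666 to 1864 CPM, 1411 CPM and 1237 to 1462 CPM, so that by sum wild-type library 5 was the only one to lie with the other group. The number of saposin-like genes that fell was 7 without ACP7-7A OE libraries 1 and 2, and 12 without those and wild-type library 5. With single libraries left out it ran from 2 to 9. That of cysteine cathepsins was 4 and 8 in the first 2 of these fits and ran from 2 to 7.

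**Figure D4:**
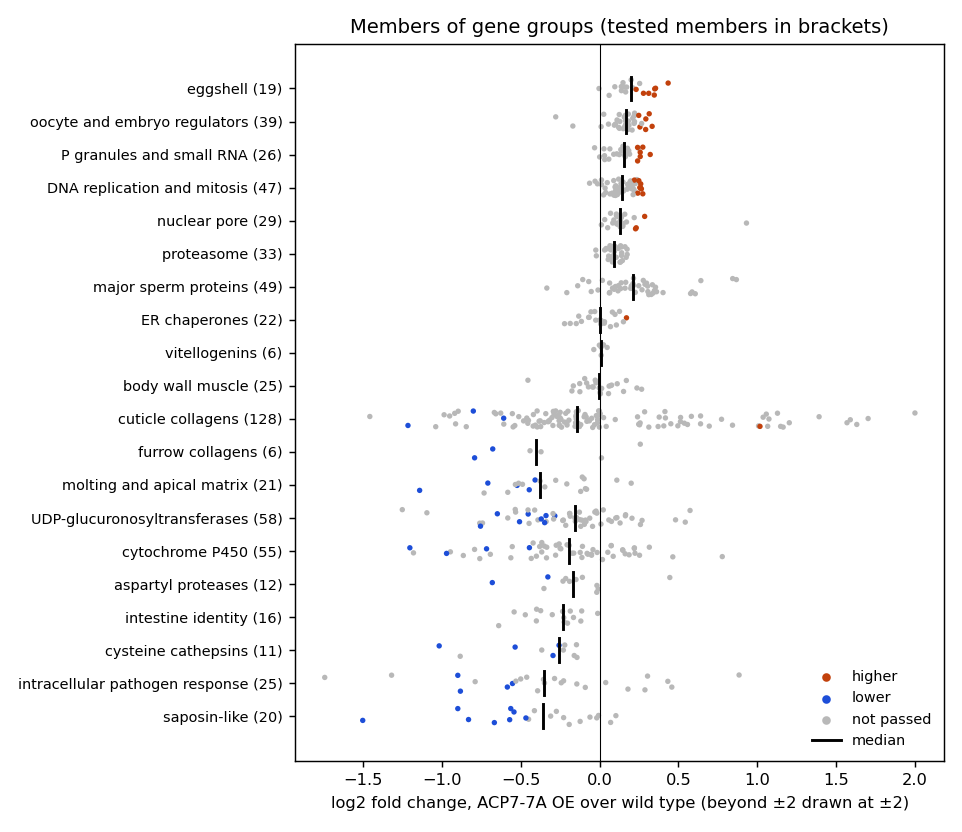
Log2 fold changes of the tested members of 20 gene groups, with the number tested in brackets and the median as a black bar. Orange points rose and blue points fell in ACP7-7A OE, and grey points did not pass the test. The medians of the eggshell and other oocyte groups lie to the right of 0, and those of cathepsins, saposin-like proteins and molting genes to the left.

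Some genes of the eggshell and the oocyte rose slightly, while most of each group did not pass the test. The eggshell of the worm is laid down around the fertilised oocyte from chitin, chondroitin proteoglycans and vitelline-layer proteins. Of 19 tested eggshell genes 7 rose and none fell (36.8%, against 1.7% of all tested genes), at a median log2 fold change of 0.20. perm-4, needed for the permeability barrier of the embryo, measured 1110, 1109, 1027, 1025 and 1166 CPM in the wild-type libraries and 1374, 1554, 1473, 1448 and 1497 CPM in ACP7-7A OE (log2 fold change 0.43 with an SE of 0.05, edgeR adjusted p = 0.000148). Its neighbour perm-2, with the same role, rose from 698 ± 33.2 to 865 ± 26.2 CPM (log2 fold change 0.31), though C44B12.6 overlaps it on the other strand. cpg-1, a chondroitin proteoglycan, measured 1185, 1185, 1193, 1166 and 1356 CPM and then 1659, 1700, 1527, 1465 and 1430 CPM (log2 fold change 0.35 with an SE of 0.06, edgeR adjusted p = 0.00458). Wild type and ACP7-7A OE did not overlap for these 3 genes, which passed in every fit with a library left out. cbd-1, a chitin-binding protein, rose from 2115 ± 205 to 2695 ± 264 CPM, a call lost without wild-type libraries 2, 3 or 4 (adjusted p up to 0.055).

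Smaller shares of other genes with a germline role rose. Of 39 regulators of the oocyte and early embryo 6 rose (15.4%, against 1.7% of all tested genes), of 26 genes of P granules and small RNA pathways 6 (23.1%), of 47 genes of DNA replication and mitosis 8 (17%), and of 29 nucleoporins 3 (10.3%). None of these 4 groups held a gene that fell in edgeR or DESeq2, and 1 oocyte and embryo regulator was lower at an unadjusted p under 0.05. Their median log2 fold changes were 0.17, 0.15, 0.14 and 0.13. lin-41, a regulator of oocyte growth, rose from 482 ± 49.04 to 590 ± 40.96 CPM, and rnr-2, a subunit of ribonucleotide reductase, from 550 ± 44.1 to 659 ± 46.1 CPM. mut-16, a scaffold of small RNA amplification, rose from 113 ± 5.89 to 135 ± 8.63 CPM and the nucleoporin gene npp-8 from 171 ± 16.7 to 209 ± 13.03 CPM. C03C10.2 overlaps rnr-2 and Y41D4B.14 overlaps npp-8 on the other strand. The calls of lin-41, rnr-2 and npp-8 were lost without any of wild-type libraries 1 to 4 or ACP7-7A OE library 2, with an adjusted p of up to 0.0874. Those of lin-41 and rnr-2 were also lost without ACP7-7A OE libraries 1 and 2 together (adjusted p = 0.0525 for both). That of mut-16 was lost without wild-type libraries 2, 3 or 4 or ACP7-7A OE library 3 (adjusted p up to 0.0719).

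The counts for these groups depended on single libraries. They ran from 3 to 14 for the eggshell genes, 0 to 12 for P granules and small RNA, 0 to 27 for the oocyte and embryo regulators, 0 to 21 for DNA replication and mitosis and 0 to 6 for the nucleoporins. All 5 counts were highest without wild-type library 5, a fit in which 758 of all 15240 tested genes rose. The regulators, the replication genes and the nucleoporins each had none without wild-type library 1, and the lowest counts of the eggshell and P granule genes came without wild-type library 2. Without ACP7-7A OE libraries 1 and 2, 4 eggshell genes rose, 2 of P granules and small RNA, none of the oocyte and embryo regulators, none of DNA replication and mitosis and 1 nucleoporin. Without those and wild-type library 5 the counts were 12, 10, 23, 19 and 5. Over all tested genes, 377 of 15560 rose in the first of these 2 fits and 974 of 15418 in the second. The oocyte marker sum was 13650 and 14230 CPM in ACP7-7A OE libraries 1 and 2 and 11370 to 12160 CPM in the other 3. It was 11940 CPM in wild-type library 5 and 9509 to 10230 CPM in the other 4, and its part in these results was not tested. None of 49 genes of major sperm proteins and related sperm genes passed in edgeR or DESeq2 or at an unadjusted p under 0.05, and their median log2 fold change was 0.21. Without ACP7-7A OE libraries 1 and 2, 25 of the 51 genes then tested rose.

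Linker histones package chromatin between nucleosomes. hil-5 rose from 188 ± 11.1 to 234 ± 13.7 CPM (log2 fold change 0.32, adjusted p = 0.00569 in edgeR). hil-7 measured 40.9, 38.9, 47.4, 41.7 and 25.7 CPM in the wild-type libraries and 25.6, 25.12, 18.04, 21.4 and 22.9 CPM in ACP7-7A OE, and fell by 0.78 on the log2 scale (with an SE of 0.14, edgeR adjusted p = 0.0098). Both passed in every fit with a library left out. hil-3 rose from 35.8 ± 2.66 to 44.6 ± 2.60 CPM, but not without wild-type libraries 1, 2 or 4 (adjusted p up to 0.0623). The pairing protein gene him-8, which acts on the X chromosome in meiosis, fell from 43.8 ± 3.61 to 30.6 ± 6.12 CPM. Its call was lost without wild-type libraries 3 or 4 or ACP7-7A OE libraries 2 or 3 (adjusted p up to 0.0533).

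**Figure D5:**
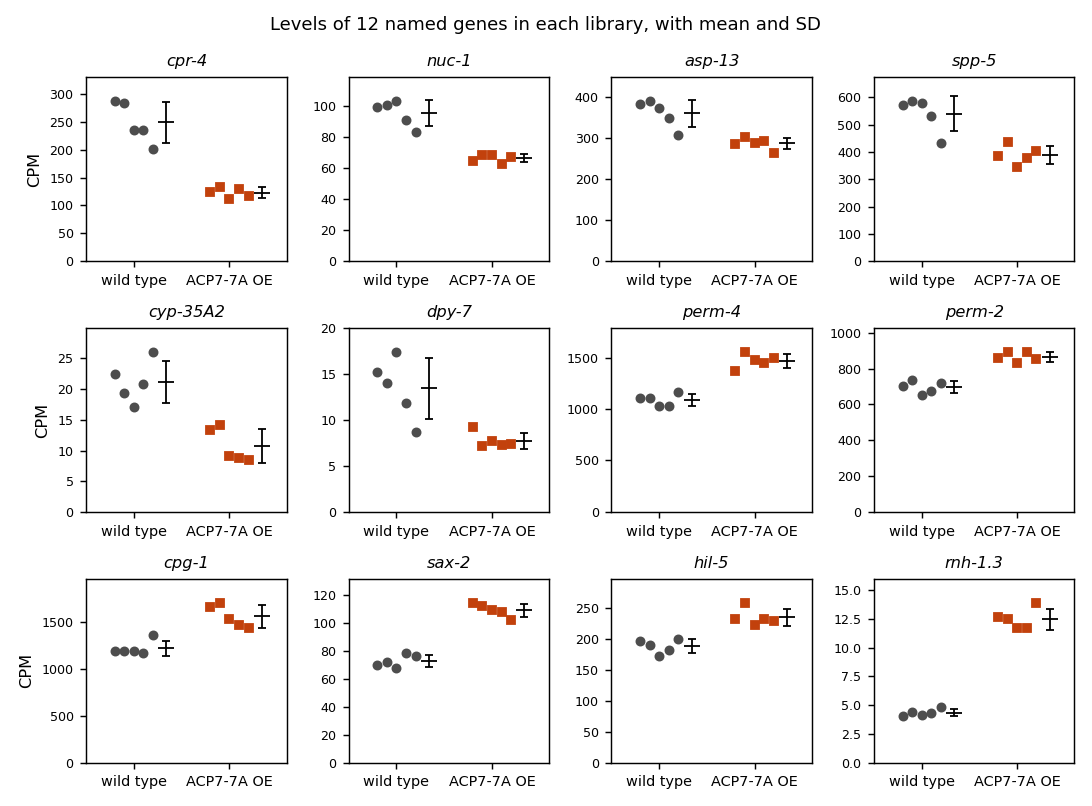
CPM of 12 named genes in each library, on axes that start at 0, with wild type as grey circles, ACP7-7A OE as orange squares, and the mean and SD of each group in black. Levels of cpr-4, nuc-1 and asp-13 lie lower and those of perm-4, perm-2, cpg-1, sax-2, hil-5 and rnh-1.3 higher in all ACP7-7A OE libraries than in all wild-type libraries.

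The cuticle is the collagen coat that the hypodermis renews at each molt. More of its genes fell than rose when all 10 libraries were used, as among all tested genes. For the largest set of collagens this turned without ACP7-7A OE libraries 1 and 2. Of 21 genes of molting and the apical matrix 5 fell and none rose (23.8%, against 3.43% of all tested genes that fell), at a median log2 fold change of −0.38, and of 6 furrow collagens, which pattern the rings of the cuticle, 2 fell. dpy-7 measured 15.3, 14.1, 17.4, 11.9 and 8.68 CPM in the wild-type libraries and 9.28, 7.17, 7.71, 7.34 and 7.35 CPM in ACP7-7A OE (log2 fold change −0.79 with an SE of 0.16, edgeR adjusted p = 0.0115). It overlapped through wild-type library 5 and passed in every fit with a library left out. dpy-2 fell from 10.1 ± 1.75 to 6.33 ± 0.87 CPM, a call lost without wild-type libraries 1, 2 or 3 (adjusted p up to 0.07). The molting gene mlt-8 fell from 16.3 ± 2.07 to 11.3 ± 0.97 CPM, a call lost without wild-type libraries 1, 3 or 4 (adjusted p up to 0.055).

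Of 128 other cuticle collagens 1 rose (0.78%) and 3 fell (2.34%), at a median log2 fold change of −0.14. Both shares lay below the 1.7% and 3.43% of all tested genes. col-74 fell from 18.7 ± 2.76 to 8.06 ± 2.48 CPM (log2 fold change −1.22, adjusted p = 0.00316 in edgeR) and passed in every fit with a library left out, though gtap-1 overlaps it on the other strand. The gene col-43 rose from 1.81 ± 0.39 to 3.66 ± 1.19 CPM, a call lost without wild-type libraries 1 to 4 or ACP7-7A OE libraries 3 or 5 (adjusted p up to 0.0908). Without ACP7-7A OE libraries 1 and 2, 26 collagens rose and 6 fell and the median turned to 0.17. Of all 15560 genes tested in that fit, 377 rose and 534 fell. In that fit 6 of the 21 molting genes fell. With single libraries left out the count of molting genes that fell ran from 0, without wild-type library 1, to 10, without wild-type library 5. The summed hypodermal markers were 831 and 873 CPM in ACP7-7A OE libraries 1 and 2, 1130 CPM in wild-type library 5 and 1416 to 1709 CPM in the others, and their part in these results was not tested.

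Enzymes that modify foreign and internal small molecules held more genes that fell than rose, as did all tested genes, of which 3.43% fell and 1.7% rose. Of 58 UDP-glucuronosyltransferases, which attach sugars to lipophilic compounds, 8 fell and none rose (13.8%), and of 55 cytochrome P450 genes, whose enzymes oxidise them, 4 fell and none rose (7.27%). Of 41 glutathione S-transferases 5 fell (12.2%) and 1, gst-38, rose, but none fell without wild-type library 1. cyp-35A2 measured 22.4, 19.4, 17.1, 20.8 and 26.05 CPM in the wild-type libraries and 13.4, 14.1, 9.16, 8.82 and 8.41 CPM in ACP7-7A OE (log2 fold change −0.97 with an SE of 0.16, edgeR adjusted p = 0.00481). The groups did not overlap. ugt-22 fell from 74.7 ± 3.53 to 58.6 ± 5.55 CPM (log2 fold change −0.35), and both passed in every fit with a library left out. cyp-33C9 fell from 19.4 ± 1.45 to 14.2 ± 1.58 CPM, a call lost without wild-type libraries 2, 3 or 4 (adjusted p up to 0.0665). ugt-17 fell from 24.2 ± 2.36 to 15.5 ± 3.50 CPM, a call lost without wild-type libraries 3 or 4 (adjusted p up to 0.0533) or in the fit to all 15 libraries (adjusted p = 0.12). The counts of genes that fell without single libraries ran from 1 to 10 for the glucuronosyltransferases and from 1 to 9 for the P450 genes, with both highest without wild-type library 5. In that fit 1184 of all 15240 tested genes fell.

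Of 14 genes of propionate breakdown 3 fell (21.4%, against 3.43% of all tested genes) and none rose. With single libraries left out, 1 to 4 of them fell. The hydrolase gene hach-1 belongs to an alternative to the vitamin B12-dependent route. It measured 344, 356, 331, 316 and 330 CPM in the wild-type libraries and 270, 289, 270, 293 and 274 CPM in ACP7-7A OE (log2 fold change −0.26 with an SE of 0.05, edgeR adjusted p = 0.0077). It fell without overlap and passed in every fit with a library left out. acdh-1, the first enzyme of that alternative, fell from 1240 ± 107 to 1005 ± 75.7 CPM, a call lost without wild-type libraries 1, 2 or 4 (adjusted p up to 0.0576). icl-1, the enzyme of the glyoxylate cycle, which builds sugar from fat, fell from 271 ± 28.8 to 210 ± 14.2 CPM (log2 fold change −0.37) and passed in every such fit. ech-8, an enoyl-CoA hydratase gene, fell from 8.399 ± 1.36 to 4.76 ± 1.00 CPM, a call lost without wild-type libraries 3 or 4 (adjusted p up to 0.0533). Of 62 genes of beta-oxidation as a whole, 3 rose (4.84%) and 4 fell (6.45%), against 1.7% and 3.43% of all tested genes.

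Most defence genes did not pass. C-type lectins and genes of the intracellular pathogen response held more genes that fell than rose, as did all tested genes. Of 111 C-type lectins, proteins that can bind microbial sugars, 9 fell (8.11%) and 2 rose (1.8%), against 3.43% and 1.7% of all tested genes. The number that fell ran from 2 to 13, without wild-type libraries 1 and 5 in turn. Over all tested genes, 188 of 15186 and 1184 of 15240 fell in these fits. clec-5 fell from 19.6 ± 2.01 to 11 ± 2.61 CPM and clec-56 from 46.4 ± 6.22 to 31.9 ± 2.99 CPM, and both passed in every fit with a library left out. clec-56 lies beside clec-227 and clec-57 on chromosome V, in a stretch from 14469231 to 14476794 where all 3 tested genes in a row fell, and reads of such relatives may have been split between them. The calls of clec-57 and clec-227 were each lost in 7 of the 10 fits with a library left out (adjusted p up to 0.106). These were the fits without wild-type library 1, 2, 3 or 4, and those without ACP7-7A OE library 2, 3 or 5 for clec-57 and library 1, 2 or 4 for clec-227. Of 17 effectors of the p38 immune pathway 1 rose, sysm-1, from 9.62 ± 2.17 to 16.8 ± 2.42 CPM (log2 fold change 0.81, adjusted p = 0.00913 in edgeR), and 1 fell (5.88% each). Of 25 genes of the intracellular pathogen response, which viruses and microsporidia induce in the gut, 4 fell and none rose (16%). Among them, the Skp1-related genes skr-3 and skr-4 fell from 22.2 ± 2.42 to 14.8 ± 2.19 CPM and from 16.4 ± 2.06 to 11.2 ± 1.23 CPM and passed in every fit with a library left out. rcs-1, a ubiquitin ligase component, fell from 7.52 ± 1.87 to 4.03 ± 0.60 CPM, a call lost without wild-type library 3 (adjusted p = 0.0521).

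Families of regulators and signals held few genes that passed the test. Of 188 nuclear hormone receptors 7 fell (3.72%) and 2 rose (1.06%), near the 3.43% and 1.7% of all tested genes. Their median log2 fold change was −0.22, against −0.02 for all genes. The fold changes of 156 receptors lay below 0 and those of 32 above, where 47.2% of all tested genes lay above 0. The number that fell ran from 1, without wild-type library 2, to 20, without wild-type library 5. Over all tested genes, 175 of 15212 and 1184 of 15240 fell in these fits. nhr-173 fell from 9.05 ± 2.12 to 4.604 ± 1.08 CPM, nhr-48 rose from 35.1 ± 2.80 to 45.2 ± 1.495 CPM, and both passed in every fit with a library left out. F-box proteins select targets for degradation. Of 139 genes of the F-box A family 4 rose (2.88%), fbxa-195 included, and 2 fell (1.44%), against 1.7% and 3.43% of all tested genes. fbxa-120 rose from 6.04 ± 0.18 to 9.75 ± 1.27 CPM and fbxa-170 from 12.56 ± 0.68 to 18.3 ± 2.45 CPM, without overlap and in every fit with a library left out. Another arrestin domain gene, arrd-13, rose from 32.5 ± 2.88 to 46.8 ± 4.505 CPM, in contrast to arrd-24. The neuropeptide gene flp-28 fell from 26.1 ± 1.80 to 18.9 ± 1.73 CPM and the transthyretin-like gene ttr-46 from 109 ± 11.3 to 82.1 ± 6.26 CPM. W07E11.1 overlaps flp-28 on the other strand. All 3 passed in every fit with a library left out.

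Few stress and housekeeping genes passed the test. Of all 14980 tested genes 3.43% fell and 1.7% rose, and 3322 had an unadjusted p under 0.05 in either direction. Without wild-type library 5, 1184 of 15240 tested genes fell and 758 rose. Of 77 cytosolic ribosomal protein genes 3 fell (3.9%) and none rose. The CPM ranges did not overlap for 12 lower and 2 higher ones, where the shares of all tested genes were 3.43% and 2.1%. At an unadjusted p under 0.05, 21 were lower and 4 higher, and 10 fell without wild-type library 5. Of 14 cytosolic heat shock genes 1 fell (7.14%), the small heat shock gene hsp-43, from 121 ± 13.3 to 89.8 ± 5.43 CPM (log2 fold change −0.43, adjusted p = 0.00403 in edgeR, passing in every fit with a library left out). Of 22 chaperones of the endoplasmic reticulum, the compartment where secreted proteins fold, 1 rose and none fell, and the median log2 fold change was 0.00. None of 33 proteasome genes, 50 nuclear genes of the respiratory chain, 25 body wall muscle genes or 6 vitellogenins passed in edgeR. At an unadjusted p under 0.05 the counts were 11, 5, 1 and 0, and DESeq2 called 4, 0, 1 and 0. Over all 14980 tested genes these counts were 3322 and 1441. Without wild-type library 5, 7 proteasome genes rose. Without ACP7-7A OE libraries 1 and 2, 5 body wall muscle genes rose, and without those and wild-type library 5, 12 rose and 1 fell. Of 12 mitochondrially encoded genes ND1 rose, from 476 ± 30.8 to 574 ± 18.04 CPM (log2 fold change 0.27), and ND5 fell, from 1185 to 1461 CPM in wild type to 933 to 1105 CPM (log2 fold change −0.35), both in every fit with a library left out. Without wild-type library 5, 8 mitochondrially encoded genes fell. ND1 overlaps ATP6 and ND5 overlaps ND3 by their coordinates, and their reads may be shared. Of 71 mitochondrial ribosomal proteins mrpl-11 fell without overlap, from 69.3 ± 1.79 to 52.0 ± 3.04 CPM (log2 fold change −0.41, adjusted p = 0.000915 in edgeR), and passed in every such fit. mrpl-1 fell as well, from 45.02 ± 3.07 to 29.99 ± 6.32 CPM, a call lost without wild-type libraries 3 or 4 (adjusted p up to 0.0539).

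The share of genes that fell is given by chromosome as a description, with no test. On X, 106 of 2162 tested genes fell (4.9%), and on V 136 of 2902 (4.69%), against 2.4% to 3.33% on chromosomes I to IV. Among I to V and X, the share that rose was lowest on V (1.03%) and highest on I (2.23%). The median log2 fold change was −0.14 on X and −0.07 on V, and from 0.00 to 0.02 on I to IV. A run of 3 neighbouring tested genes that fell lay on chromosome IV, from 13369425 to 13380459, and held rplp-2.2, Y62E10A.6 and mau-8. mau-8 fell from 21.4 ± 2.32 to 13.7 ± 2.17 CPM and passed in every fit with a library left out, but emc-3 overlaps it on the other strand. The calls of rplp-2.2 and Y62E10A.6 were lost in 9 and 5 of the 10 fits, for rplp-2.2 in all but the fit without wild-type library 5 and for Y62E10A.6 without wild-type libraries 2 or 4 or ACP7-7A OE libraries 2, 3 or 4 (adjusted p up to 0.181 and 0.0831).

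For single genes, the level in ACP7 OE was set beside that in ACP7-7A OE, and ACP7 OE was not tested against wild type. In an edgeR fit to all 15 libraries, cpr-4 was lower in ACP7-7A OE than in ACP7 OE, where it measured 326 ± 20.9 CPM (log2 difference −1.39, adjusted p = 2.17e-10). The same held for asp-13 at 431 ± 17.03 CPM (−0.57, adjusted p = 9.13e-07), spp-5 at 614 ± 29.8 CPM (−0.64, adjusted p = 4.36e-06) and hach-1 at 377 ± 11.39 CPM (−0.42, adjusted p = 3.93e-06). In wild type cpr-4, asp-13, spp-5 and hach-1 measured 249, 361, 540 and 335 CPM on average, between the means of the constructs. perm-4 was higher in ACP7-7A OE than in ACP7 OE, at 1029 ± 102 CPM in the latter (0.53, adjusted p = 3.30e-06), and so was rnh-1.3, at 3.95 ± 0.47 CPM (1.67, adjusted p = 4.05e-09). sax-2 was lower in ACP7-7A OE than in ACP7 OE, where it measured 133 ± 10.6 CPM (−0.27, adjusted p = 0.00592). Its levels in both constructs lay above the 72.9 ± 4.39 CPM of wild type. F21A3.11 itself was higher in ACP7-7A OE than in ACP7 OE, where it measured 610 ± 29.8 CPM (log2 difference 1.16, adjusted p = 1.44e-07). icl-1 at 197 ± 31.2 CPM in ACP7 OE (0.10, adjusted p = 0.557) and arrd-13 at 43.4 ± 3.18 CPM (0.12, adjusted p = 0.394) showed no detectable difference between the constructs. Both comparisons of ACP7-7A OE share its 5 libraries.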

How the data were processed

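The authors deposited a table of whole-number counts per gene, with no normalization, and per the file headers featureCounts 2.0.6 produced it. The submitters' processing notes list Trim Galore, STAR and the build WBcel235, and the labels paired reads of 150 nucleotides. How strand, multiple alignments and mates were handled is not given in the sources used here. Of the values from 5 to 39, 81.3% to 86.1% in a library were even, so mates appear to have been counted separately. Intervals and bounds that treat counts as independent are then too narrow or too high. Every column belonged to a sample. Symbols came from a RefSeq gene table, which matched 46925 identifiers, and the others kept their own identifier.

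The 10 libraries were fitted alone in R 4.3.3 with edgeR 4.0.16 (robust quasi-likelihood F test, TMM factors 0.978 to 1.01, filterByExpr, common biological coefficient of variation 0.218), with Benjamini-Hochberg adjustment over all tested genes and a threshold of 0.05. The procedure was tested on simulated data. SE is that implied by the test. Levels are TMM-scaled CPM, mean ± SD over 5 libraries. No pair of libraries in a group agreed within sampling noise.

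The 62 gene lists and the named genes were chosen with earlier results of these data known, and no list was tested as a set. Named are genes of the construct; the 12 highest and 12 lowest fold changes and 8 smallest p in each direction among non-overlapping calls whose average log2 CPM reached 1; genes at 0 in a group with at least 10 counts in every library of the other; up to 4 called members per list; and runs of 3 or more called neighbours. Not all of them are printed. Some list names (12) had no gene in the table, and the pattern for chemoreceptors was corrected after the data were seen. Alternatives were RLE or no scaling, DESeq2 1.42.0, other filters, halved counts, all 15 libraries, a replicate block and fits without single libraries. A planned count of a promoter motif was not run, because no promoter sequence was used here.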

Additional observations from a re-analysis of the deposited data

Results flagged for a closer look

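In 17 of 188 groups of 5 values that were checked (9.04%), a single library lay apart from the other 4 by more than Dixon's 95% critical value of 0.71. Chance flags about 1 in 20 such groups, and 14 of the 17 were wild-type library 5. That library was the highest of its group for T21C9.13 (151 CPM, the others 113 to 121), C38D9.2 (190 CPM, the others 140 to 149), asm-3 (13.3 CPM, the others 4.31 to 5.39), cpg-1 (1356 CPM, the others 1166 to 1193), rnr-2 (627 CPM, the others 518 to 545) and npp-8 (200.1 CPM, the others 160 to 171). It was the lowest for sdz-24 (5.82 CPM, the others 9.57 to 10.7), clec-56 (35.6 CPM, the others 46.7 to 50.4), skr-4 (12.9 CPM, the others 16.6 to 18.1), ND1 (422 CPM, the others 480 to 498) and nhr-173 (5.45 CPM, the others 9.16 to 10.7). The summed markers of body wall muscle (3428 CPM, the others 4593 to 4938), cuticle-forming hypodermis (1130 CPM, the others 1553 to 1709) and pharynx (86.1 CPM, the others 129 to 133) were lowest there too. Without wild-type library 5, 1942 genes passed the test.

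In ACP7-7A OE, library 1 was the highest for him-8 (41.2 CPM, the others 26.8 to 30.3) and for dpy-7 (9.28 CPM, the others 7.17 to 7.71). Library 4 was the lowest for dpy-2 (4.82 CPM, the others 6.46 to 7.03).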

How the results depend on the processing

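No gene called in the comparison changed sign in any alternative. The count of 768 genes was 1441 with DESeq2 (640 higher and 801 lower). With all 15 libraries in the fit 419 genes were higher. Chosen after seeing the data, the fit without ACP7-7A OE libraries 1 and 2 called 911 genes, 472 of them among the 768, and that without those and wild-type library 5 called 2397 (974 higher and 1423 lower), with 747 of the 768. With single libraries left out the counts ran from 212 to 1942 in all, from 68 to 758 higher and from 144 to 1184 lower. RLE size factors, library totals alone, other filters and halved counts moved the total to between 757 and 879.

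Samples with the same replicate number did not deviate together, with correlations of deviations from −0.279 to 0.122, and 1 of 10 samples correlated best with its own number. With the replicate number as a block, 292 genes passed, 68 higher and 224 lower, in a fit that spends degrees of freedom on numbers that do not pair the samples. The cause of these shifts was not tested. Depth limits low genes: ttr-23 rested on 600 counts over 5 libraries.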
